A study of Homo sapiens with 8 samples.

Results

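The expression of 10 genes of the Wnt and beta-catenin pathway was examined in the human colorectal cancer line HCT116. They were chosen by name: CTNNB1, APC, AXIN2, NKD1, RNF43, ZNRF3, TCF7, TCF7L2, LGR4 and ASCL2. All 10 were found among the 78932 gene identifiers of the count tables, and 9 of them were among the 12618 genes with enough reads to test. The cells carried a degradation tag on NUDT21 (dTAG-NUDT21), whose product is the small subunit of cleavage factor Im, a complex that helps to choose where pre-mRNA is cut and polyadenylated. Of the 8 libraries, 4 came from cells given DMSO with JTE-607 and 4 from cells given dTAGV1 with JTE-607. dTAGV1 recruits a ubiquitin ligase to the tag so that the tagged protein is degraded, DMSO is its solvent, and JTE-607 inhibits CPSF73, the nuclease that cuts pre-mRNA at poly(A) sites. Both groups therefore shared the tagged line and the inhibitor, so that the comparison is of dTAGV1 against its solvent under JTE-607. Doses, times and the number of clones behind the line are not given in the sources used here, nor is it stated that replicates were separate cultures. The p-values measure only the spread between these libraries, which may be technical.

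In Wnt signalling, beta-catenin (CTNNB1) is made continuously and marked for degradation by a complex that holds APC and an axin protein. When a Wnt ligand engages its receptors, or when the complex cannot act on beta-catenin, the protein builds up, enters the nucleus and switches on genes together with TCF and LEF factors. Several of these genes, AXIN2, NKD1, RNF43 and ZNRF3 among them, encode inhibitors that feed back on the pathway. In the colon this pathway maintains the stem cells of the crypt, and HCT116 carries a mutant beta-catenin that escapes degradation.

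Sequencing depth was 8649238 to 9977205 reads per library, with 3447842 to 4291256 assigned to genes in the sense direction. Reads that fell in no gene on the counted strand were 30.1% to 33.7% of uniquely mapped reads with DMSO and 35.9% to 37.4% with dTAGV1, without overlap, and its part in the results was not tested. NUDT21 RNA was lower in every library labelled dTAGV1, at means of 8.25 ± 2.62 CPM against 32.2 ± 2.81 CPM (SD, n = 4). The level of NUDT21 protein was not measured here. CPM is counts in each 1000000 of the library, after scaling by the TMM method. The epithelial markers EPCAM, CDH1, KRT8, KRT18, KRT19, CDX2 and CLDN4 were detected and VIL1 had at most 3 counts. Of 7 tested epithelial markers 1 rose and 3 fell, where 57.9% of all tested genes differed, 29.4% higher and 28.5% lower. The sum of all 8 epithelial markers was 1720 to 2010 CPM with DMSO and 1380 to 1480 CPM with dTAGV1. Immune markers summed to 0.482 to 1.91 CPM and 0.604 to 2.83 CPM, and none of the 6 had enough reads to test. Stromal markers summed to 27.5 to 32.2 CPM and 20.8 to 30.05 CPM, which overlap, and COL3A1, DCN and LUM were at 0 in all libraries. COL1A1 and VIM were detected, at means of 17.3 and 11.7 CPM with DMSO and 13.8 and 10.98 CPM with dTAGV1. COL1A1 was lower in every dTAGV1 library, but neither gene passed the test (edgeR, adjusted p = 0.0917 and 0.681).

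The libraries were made from transcript 3′ ends, where NUDT21 and the target of JTE-607 act. The last 30 bases of the protein-coding transcript of the basic GENCODE 29 set that reaches farthest downstream, among those with a complete annotated end, are therefore shown for 5 members: the pair of TCF factors, of which 1 fell and 1 did not pass the test, CTNNB1 and LGR4, which moved in opposite directions, and ASCL2, which had no reads. Capitals mark a poly(A) signal, searched as AATAAA or ATTAAA on the transcript strand. The coordinates are on GRCh38: chr3:41240424-41240453 (plus strand) for CTNNB1, chr11:27365961-27365990 (minus) for LGR4, chr5:134148200-134148229 (plus) for TCF7, chr10:113167649-113167678 (plus) for TCF7L2 and chr11:2268495-2268524 (minus) for ASCL2. The annotated genes CTNNB1 and TCF7 extend farther downstream than these windows, and the other members end where their windows end.
CTNNB1: ATTAAActtttaattcattcgattgtgtca
LGR4: ttttgaattATTAAAgtttctagaaagcaa
TCF7: tttttactgggtttgtttttcaaagcctga
TCF7L2: AATAAAagcaacttagtatgtgcagataaa
ASCL2: actttataAATAAAtcagttctgtttacca
AATAAA was present in this window for 3 of the 10 members (NKD1, TCF7L2 and ASCL2) and ATTAAA for 3 (CTNNB1, AXIN2 and LGR4). Across 10624 tested protein-coding genes the shares were 52.2% and 14.6%. TGTA, which reads UGUA in RNA and is the motif that cleavage factor Im binds, occurred within the last 100 bases for 6 of 10 members and for 55.6% of the tested protein-coding genes. Which 3′ ends the cells used was not measured by these gene counts.

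Of the 9 tested members 6 differed between the groups, 2 higher and 4 lower with dTAGV1 (quasi-likelihood test of edgeR, with p-values adjusted by Benjamini-Hochberg over all tested genes and a threshold of 0.05). Among all tested genes 57.9% differed, 29.4% higher and 28.5% lower, so that the share among the members lies near the background. CTNNB1, NKD1, RNF43 and TCF7 fell, APC and LGR4 rose, and AXIN2, ZNRF3 and TCF7L2 did not pass the test. The 6 members that differed were those whose libraries did not overlap between groups, which held for 50.9% of all tested genes. The median log2 fold change of the 9 was 0.00, against 0.01 for all tested genes, and their median absolute value was 0.67 against 0.42. The tested members are those with enough reads in at least 1 group, so these medians do not describe all 10.

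**Figure D1:**
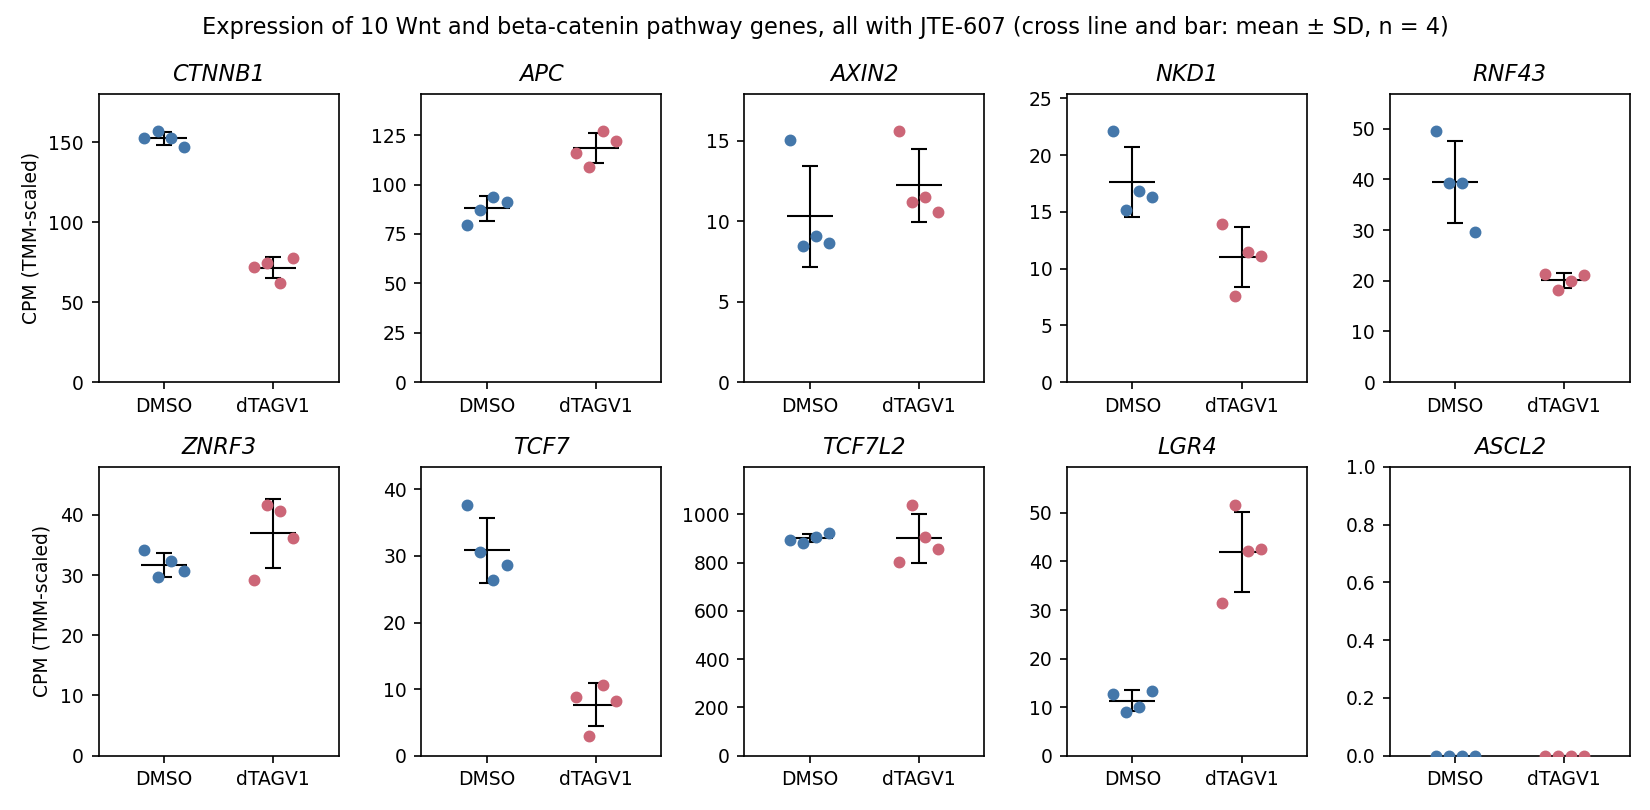
Expression of the 10 genes in each library, in CPM on axes that start at 0 and differ between panels; points are libraries (4 DMSO in blue, 4 dTAGV1 in red), and the line and bar are the mean and SD. CTNNB1, NKD1, RNF43 and TCF7 lie lower in every dTAGV1 library, APC and LGR4 lie higher, AXIN2, ZNRF3 and TCF7L2 overlap, and ASCL2 is at 0 throughout.

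CTNNB1 encodes beta-catenin, the effector on which the pathway converges (ENSG00000168036; GRCh38 chromosome 3, 41194741 to 41260096, plus strand, protein-coding). It measured 153, 157, 153 and 147 CPM in DMSO replicates 1 to 4, and 72.3, 74.3, 62.2 and 77.8 CPM in dTAGV1 replicates 1 to 4. The 4 DMSO libraries lay close together, and all 4 dTAGV1 libraries were far lower. CTNNB1 fell from 152 ± 4.07 to 71.6 ± 6.72 CPM (SD, n = 4), a 2.12-fold decrease and a log2 fold change of -1.09 (standard error 0.08, edgeR, adjusted p = 5.35e-11). In these bulk RNA samples, fewer cells that express a gene and less RNA per cell cannot be told apart. Beta-catenin protein was not measured here.

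APC encodes a scaffold protein of the complex that marks beta-catenin for degradation (ENSG00000134982; chromosome 5, 112707498 to 112846239, plus strand, protein-coding). Its values were 79.5, 87.3, 93.9 and 91.0 CPM with DMSO and 116, 109, 127 and 122 CPM with dTAGV1. Every dTAGV1 library was above every DMSO library, the reverse of CTNNB1. Mean APC expression rose from 87.9 ± 6.23 to 119 ± 7.55 CPM (SD, n = 4), a log2 fold change of 0.43 (standard error 0.08, edgeR, adjusted p = 9.13e-05). In GENCODE 29, exons of AC008575.1 overlap it on the same strand, and how reads in the overlap were counted is not given in the sources used here.

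The 4 feedback inhibitors split. NKD1 and RNF43 fell, while AXIN2 and ZNRF3 did not pass the test and had estimates above 0. AXIN2 encodes an axin, part of the degradation complex, and is widely used as a readout of beta-catenin activity (ENSG00000168646; chromosome 17, 65528563 to 65561647, minus strand, protein-coding). AXIN2 measured 15.0, 8.44, 9.07 and 8.65 CPM with DMSO and 15.6, 11.2, 11.5 and 10.6 CPM with dTAGV1. Replicate 1 was the highest library of each group, and the groups overlapped because of DMSO replicate 1. On the log2 scale AXIN2 differed by 0.25 with a 95% interval of -0.18 to 0.69 (edgeR, adjusted p = 0.314), and counts of 34 to 55 per library limit its precision. Without DMSO replicate 1 it was 0.48 (edgeR, adjusted p = 0.0544). The interval leaves room for no change and for a 1.61-fold increase, and its lower bound is 0.882-fold of the DMSO level. In GENCODE 29, exons of AC004805.1 overlap AXIN2 on the same strand.

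NKD1 encodes a protein that binds Dishevelled and dampens the signal inside the cell (ENSG00000140807; chromosome 16, 50548330 to 50649249, plus strand, protein-coding). It measured 22.1, 15.2, 16.8 and 16.3 CPM with DMSO and 13.9, 7.55, 11.5 and 11.1 CPM with dTAGV1. The highest dTAGV1 library came close to the lowest DMSO library without reaching it. NKD1 fell from 17.6 ± 3.09 to 11.01 ± 2.61 CPM (SD, n = 4), which is -0.67 on the log2 scale (standard error 0.19, edgeR, adjusted p = 0.00357). This was the smallest decrease among the 4 members that fell, and counts were 25 to 81 per library.

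RNF43 and ZNRF3 encode related membrane ubiquitin ligases that remove Wnt receptors from the cell surface. RNF43 (ENSG00000108375; chromosome 17, 58352500 to 58417595, minus strand, protein-coding) measured 49.5, 39.3, 39.2 and 29.7 CPM with DMSO and 21.3, 18.1, 20.03 and 21.05 CPM with dTAGV1. The DMSO libraries were spread widely, and the dTAGV1 libraries were tightly grouped and lower. RNF43 fell 1.95-fold, a log2 fold change of -0.96 (standard error 0.14, edgeR, adjusted p = 3.22e-06). Exons of SUPT4H1 and AC004687.2 overlap RNF43 on the same strand in GENCODE 29, and its counts may miss reads in those stretches.

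ZNRF3 (ENSG00000183579; chromosome 22, 28883592 to 29057487, plus strand, protein-coding) measured 34.2, 29.7, 32.3 and 30.7 CPM with DMSO. With dTAGV1 it measured 29.2, 41.7, 40.7 and 36.2 CPM, so that 3 libraries lay above all DMSO libraries and replicate 1 lay below them. Its log2 fold change was 0.22 with a 95% interval of -0.04 to 0.48 (edgeR, adjusted p = 0.133). Without dTAGV1 replicate 1 it passed the threshold, at 0.31 (edgeR, adjusted p = 0.0308).

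TCF7 and TCF7L2 encode transcription factors through which beta-catenin acts on its target genes. TCF7 (ENSG00000081059; chromosome 5, 134114711 to 134151865, plus strand, protein-coding) measured 37.7, 30.6, 26.4 and 28.7 CPM with DMSO and 8.79, 3.02, 10.6 and 8.28 CPM with dTAGV1. All dTAGV1 libraries were far lower, and replicate 2 was the lowest, with 10 counts. TCF7 fell from 30.9 ± 4.88 to 7.67 ± 3.26 CPM (SD, n = 4 each), a 3.98-fold decrease and the largest among the members. On the log2 scale this was -1.99 (standard error 0.21, edgeR, adjusted p = 7.79e-08). SKP1 overlaps TCF7 on the opposite strand, and TCF7 had 1 to 4 opposite-strand counts per library.

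TCF7L2 (ENSG00000148737; chromosome 10, 112950250 to 113167678, plus strand, protein-coding) measured 894, 882, 907 and 923 CPM with DMSO and 804, 1040, 906 and 856 CPM with dTAGV1. The dTAGV1 libraries lay on both sides of the DMSO libraries and were more widely spread, at 902 ± 102 against 901 ± 17.9 CPM (SD, n = 4 each). On the log2 scale the change was 0.00 with a 95% interval of -0.15 to 0.15 (edgeR, adjusted p = 0.995). A change in the level of TCF7L2 of more than 1.11-fold in either direction therefore lies outside the interval. TCF7L2 has many transcript forms, and gene counts do not separate them.

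The promoters of the members were searched for the core that TCF and LEF factors bind, as CTTTG followed by AA, AT, TA or TT. Both strands were searched, in the RefSeq windows of 250 bases before to 50 after each start (GRCh38.p14). Windows were given for 6 of the 10 members, and a match was found for TCF7 and TCF7L2, each at only 1 of its annotated starts. The 30 bases around each match are shown as read on the plus strand, with the match in capitals (chr5:134123556-134123585 and chr10:113126488-113126517). The TCF7 match lies on the strand opposite the gene, so its capitals are the reverse complement of CTTTGTT.
TCF7: gggccccactggAACAAAGgaggagagagg
TCF7L2: caaaatatcaggCTTTGTTcttttgattga
The matches begin 50 and 133 bases before the start, and 16.4% of all genes with such windows had a match in at least 1 of them. Among 92 other Wnt pathway genes with windows the share was 10.9%. These shares depend on how many windows each gene has. Counted by window, 2 of 11 member windows had a match, against 13.8% of all windows. A match is not evidence of binding.

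LGR4 encodes a receptor for R-spondins, secreted proteins that protect Wnt receptors from RNF43 and ZNRF3 (ENSG00000205213; chromosome 11, 27365961 to 27472775, minus strand, protein-coding). LGR4 measured 12.8, 8.92, 10.1 and 13.4 CPM with DMSO and 31.5, 51.7, 42.1 and 42.6 CPM with dTAGV1. The lowest dTAGV1 library was above the highest DMSO library by a wide margin. Mean LGR4 expression was 11.3 ± 2.13 CPM in DMSO and 42.0 ± 8.26 CPM in dTAGV1 libraries (SD, n = 4 each), a 3.70-fold rise. On the log2 scale this was 1.89 (standard error 0.16), the larger of the 2 increases (edgeR, adjusted p = 4.9e-10). The related receptors LGR5 and LGR6, named after their values were seen, had 0 and 1 counts in total, and whether the annotation used for counting left reads of these genes unassigned is not given in the sources used here.

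ASCL2 encodes a transcription factor of intestinal stem cells that beta-catenin is known to activate (ENSG00000183734; chromosome 11, 2268495 to 2270952, minus strand, protein-coding). It had 0 counts in all 8 libraries, also irrespective of strand. At these depths 0 counts allow up to 0.699 to 0.870 CPM per library, taking 3 counts as the limit and covering counting error only. Unlike the other CPM values, this limit was taken over all sense counts of the library, without TMM scaling. Whether the annotation used for counting left reads of ASCL2 unassigned is not given in the sources used here, and in that case 0 counts would set no limit. No difference between the groups could be tested for this gene.

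**Figure D2:**
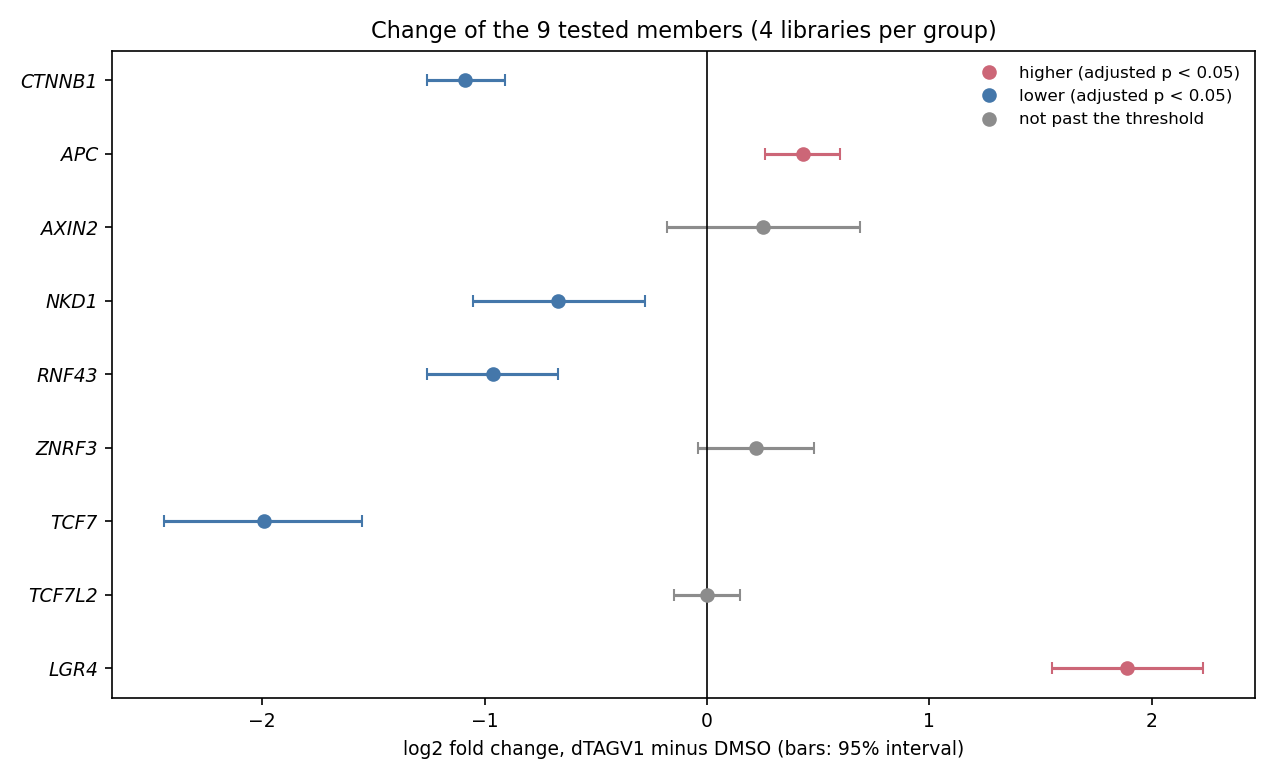
The log2 fold change of the 9 tested genes, dTAGV1 minus DMSO, with its 95% interval (horizontal axis); red marks genes that were higher, blue genes that were lower and grey genes not past the threshold. TCF7 (-1.99) and LGR4 (1.89) lie at the ends, and the interval of TCF7L2 (-0.15 to 0.15) is the narrowest.

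Ratios of related genes within a library do not depend on how libraries are scaled. The log2 ratio of TCF7 to TCF7L2 was -4.56, -4.84, -5.10 and -5.00 with DMSO and -6.49, -8.36, -6.40 and -6.67 with dTAGV1. The groups did not overlap, and the means differed by -2.11. Without dTAGV1 replicate 2, the lowest library, the difference was -1.65. The ratio of RNF43 to ZNRF3 changed in the same direction, from 0.29 ± 0.25 to -0.86 ± 0.32 on the log2 scale (SD, n = 4 each), again without overlap. RNF43 counts were 0.968 to 1.45 times those of ZNRF3 with DMSO and 0.437 to 0.729 times with dTAGV1.

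AXIN2 was set against AXIN1, the related gene that encodes the other axin of the degradation complex. Their log2 ratio averaged -1.21 ± 0.30 in the DMSO group and -0.74 ± 0.26 in the dTAGV1 group (SD, n = 4), and the groups overlapped. AXIN1 itself had a log2 fold change of -0.19 (edgeR, adjusted p = 0.251). CTNNB1 was set against JUP, which encodes plakoglobin, a close relative of beta-catenin at cell junctions. JUP fell as well, from 191 ± 17.3 to 140 ± 4.26 CPM (SD, n = 4 each; log2 fold change -0.45, edgeR adjusted p = 2.3e-05). The log2 ratio of CTNNB1 to JUP averaged -0.32 ± 0.14 in the DMSO group and -0.97 ± 0.18 in the dTAGV1 group (SD, n = 4), without overlap, so CTNNB1 was lower relative to JUP as well.

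**Figure D3:**
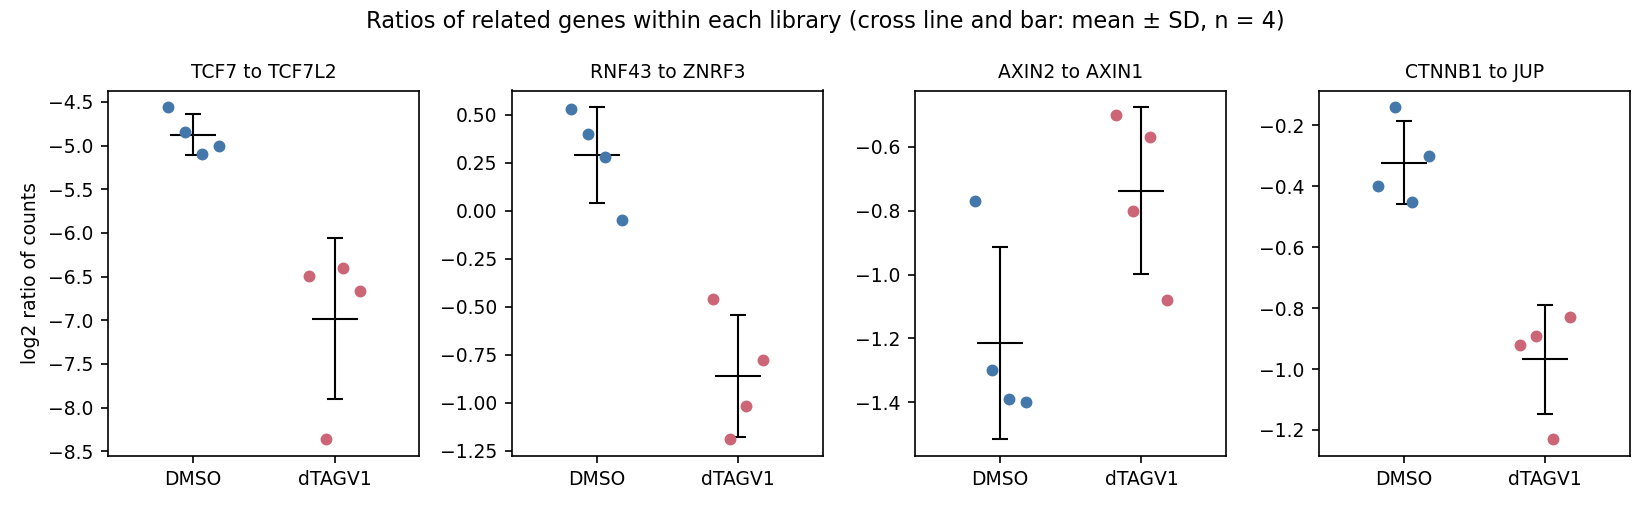
The log2 ratio of counts of related genes in each library (vertical axis, differing between panels), by group; points are libraries, and the line and bar are the mean and SD. The ratios of TCF7 to TCF7L2, RNF43 to ZNRF3 and CTNNB1 to JUP are lower in every dTAGV1 library, and those of AXIN2 to AXIN1 overlap.

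A wider list of 124 other Wnt pathway genes was examined to place the members. Of these, 79 were tested, 27 had too few reads and 18 had none. Among the tested, 23 rose and 25 fell, or 60.8%, against 57.9% of all tested genes, and the median log2 fold change was -0.12 against 0.01. The list as a whole thus lay near the background in its share of changed genes.

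Ligands, their secretion factors and R-spondins were mostly below the limit for testing, with 6 of 25 tested, of which 1 rose and 4 fell. This is 83.3% of the 6, against 57.9% of all tested genes. WNT16, a secreted Wnt ligand, had the largest decrease among the 79 tested genes of the list. It measured 44.0, 41.0, 38.2 and 40.3 CPM with DMSO and 5.39, 6.65, 6.78 and 6.39 CPM with dTAGV1, without overlap. On the log2 scale WNT16 changed by -2.69 (standard error 0.15, edgeR, adjusted p = 2.51e-13). The ligand gene WNT2B rose, with a log2 fold change of 0.71 (edgeR, adjusted p = 0.00703). Its groups overlapped, and its counts were 23 to 53 per library.

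Of 18 receptor and co-receptor genes 11 were tested, and 5 rose and 3 fell. This is 72.7% of the 11, against 57.9% of all tested genes. The Frizzled receptors, which bind Wnt ligands, went both ways. FZD5 rose from 7.18 ± 1.52 to 17.1 ± 0.461 CPM and FZD3 fell from 63.9 ± 7.87 to 22.8 ± 1.36 CPM (SD, n = 4 each), at log2 fold changes of 1.25 and -1.48 (edgeR, adjusted p = 3.24e-06 and 7.54e-11). The log2 fold change of LGR4, at 1.89, lies above the range of these receptors, and differences between genes were not tested.

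Of 13 extracellular inhibitors 4 were tested, of which 1 rose and 3 fell. All of these few genes thus changed, against 57.9% of all tested genes. DKK1, a secreted blocker of the Wnt co-receptors, fell from 117 ± 12.3 to 58.2 ± 10.3 CPM, and FRZB, a secreted Wnt-binding protein, rose from 17.5 ± 1.49 to 33.0 ± 4.30 CPM (SD, n = 4 each). Their log2 fold changes were -0.999 and 0.91 (edgeR, adjusted p = 4.87e-08 and 3.44e-06).

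Among 23 tested transducers and factors of beta-catenin degradation 7 rose and 3 fell, and none changed by more than 1 on the log2 scale. The genes that differed were 43.5% of the 23, against 57.9% of all tested genes. FBXW11, part of the ubiquitin ligase that recognises marked beta-catenin, rose by 0.65, and DVL1, a Dishevelled transducer, fell by 0.74 on the log2 scale (edgeR, adjusted p = 7.72e-07 and 9.05e-07). APC, at 0.43, lies within the range of this group, which ran from -0.74 to 0.65. Among 19 tested nuclear partners and co-regulators 6 rose and 5 fell, which is 57.9%, the same share as among all tested genes. The corepressor gene TLE1 rose by 0.88 and TLE5, which encodes a short relative, fell by 0.63 on the log2 scale (edgeR, adjusted p = 0.000171 and 1.08e-06). The call of TLE5 was lost with counts irrespective of strand (log2 fold change -0.26, edgeR adjusted p = 0.618). LEF1, the fourth gene of the TCF and LEF family with TCF7, TCF7L1 and TCF7L2, is named after its values were seen and had 0 counts in all libraries, which carries the same limit from the annotation as for ASCL2.

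Of 4 cadherin partners, which hold beta-catenin or its relatives at cell junctions, CTNNA1 rose by 0.21 and JUP fell. CTNNA1 did not keep its call with library size scaling, where it was 0.14 (edgeR, adjusted p = 0.101). It also lost the call without a filter on low counts and without dTAGV1 replicate 4, at 0.19 and 0.16 (edgeR, adjusted p = 0.0577 and 0.0618).

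Of 17 other target genes of beta-catenin 12 were tested, and 2 rose and 6 fell. The share that changed was 66.7%, against 57.9% of all tested genes, and the list was not tested as a set. CD44, a cell adhesion receptor, rose from 598 ± 65.7 to 1430 ± 44.5 CPM, and BMP4, a secreted growth factor, fell from 391 ± 49.3 to 154 ± 14.7 CPM (SD, n = 4 each). Their log2 fold changes were 1.26 and -1.34 (edgeR, adjusted p = 4.06e-13 and 1.19e-11). The rest of the changed targets are named after their values were seen. The transcription factor SOX4 rose by 0.89, and SP5, EPHB2, SOX9, CCND1 and MYC had log2 fold changes of -1.03, -0.68, -0.37, -0.74 and -0.63. NOTUM, an inhibitor that is itself a known target, was among the extracellular inhibitors that fell, at -1.44. SP5 and NOTUM averaged 4.75 and 6.81 CPM with DMSO and 2.29 and 2.46 CPM with dTAGV1, below the naming limit of 10 CPM. Such low counts limit the precision of both estimates. Targets on the list therefore fell and rose. Of the feedback inhibitors among the members, themselves targets, NKD1 and RNF43 fell, and AXIN2 and ZNRF3 did not pass the test. The estimates of AXIN2 and ZNRF3 were above 0, at 0.25 and 0.22.

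**Figure D4:**
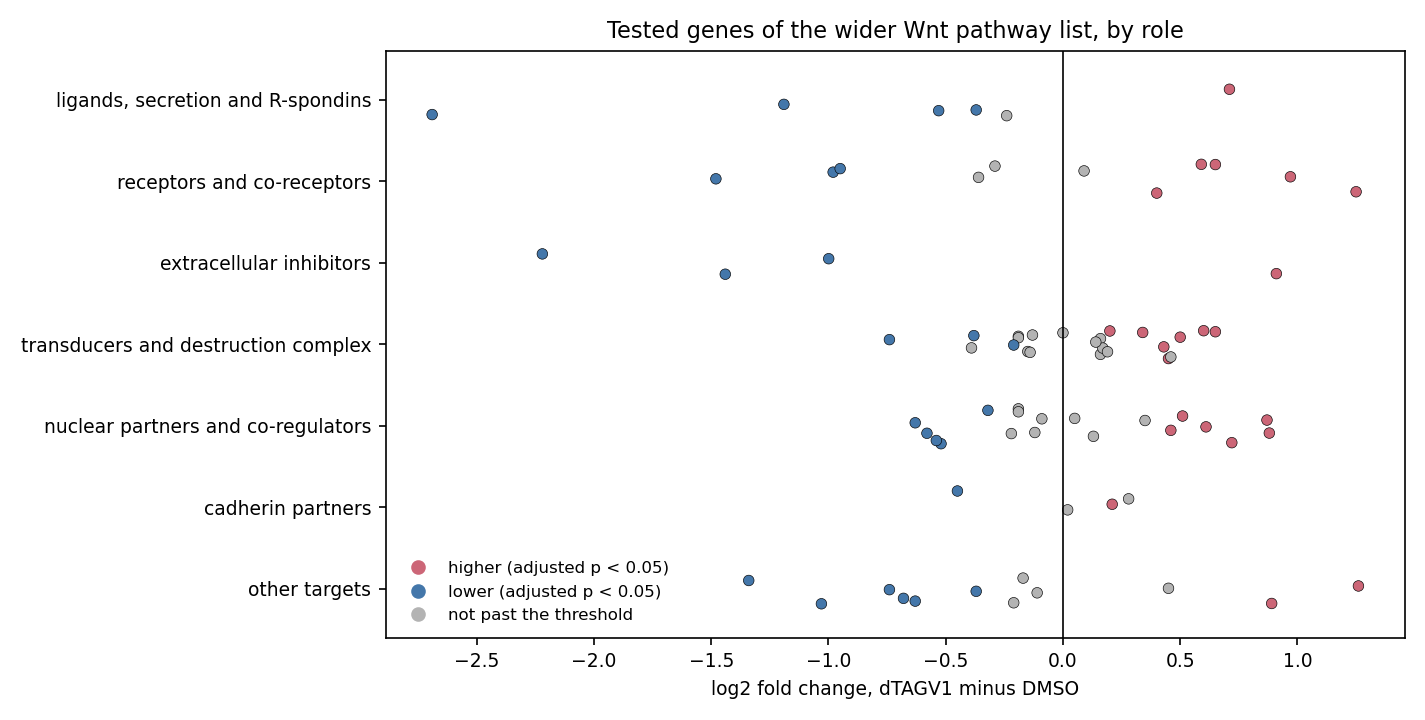
The log2 fold change (horizontal axis) of the 79 tested genes of the wider list, dTAGV1 minus DMSO, by role (vertical axis, points spread at random within a row); red marks genes that were higher, blue lower and grey not past the threshold. Genes on both sides of 0 passed the threshold in every role, from -2.69 for WNT16 to 1.26 for CD44.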

How the data were processed

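RNA 3′ ends of HCT116 cells with tagged NUDT21 were sequenced (Lexogen QuantSeq forward kit, per the labels' protocols), in 4 libraries per group. The deposited values are read counts per gene in the layout of STAR. FastQC, fastp, STAR, HTSeq, DESeq2 and GRCh38 are named in the submitters' processing notes. Their versions and the annotation are not given in the sources used here. Counts on the gene strand were used, as the kit is forward-stranded. Totals of reads given to no gene, 56.7% to 62.8% of reads, were left out. The 10 members and all lists were chosen with earlier results of these data known.

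Genes were filtered with filterByExpr and scaled by TMM, and groups were compared with the robust quasi-likelihood test of edgeR 4.0.16 in R 4.3.3, with Benjamini-Hochberg adjustment over 12618 genes and a threshold of 0.05. The standard error was the absolute log2 fold change divided by the square root of F, and intervals used the t quantile of the fit. The test was checked on simulated data with few changed genes and a dispersion shared by all genes. That check does not cover changes as widespread as those found here. Ratios added 0.5 to each count and were not tested. All members, NUDT21, AXIN1 and JUP were named, and from each role of the wider list the changed genes with the largest rise and fall at a mean of at least 10 CPM. Alternatives were DESeq2 1.42.0, limma-voom (limma 3.58.1), other scalings, filters and strands, a replicate term, non-robust dispersion and leaving out each library. Coordinates are from GENCODE 29, which is not stated to be the authors' annotation. Within each group, pairs of libraries differed by more than sampling noise (chi-square over degrees of freedom 1.91 to 5.76).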

Additional observations from a re-analysis of the deposited data

Results flagged for a closer look

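Of 26 sets of 4 libraries examined, 3 had a library whose gap to the nearest other was large against the range of the set, where chance flags about 1 set in 20. AXIN2 in DMSO replicate 1 measured 15.0 CPM, above 8.44 to 9.07 CPM in the other DMSO libraries, a gap of 0.904 of the range. The log2 ratio of AXIN2 to AXIN1 was highest in the same library, at -0.77. The log2 ratio of TCF7 to TCF7L2 was -8.36 in dTAGV1 replicate 2, which had 10 counts of TCF7, against -6.67 to -6.40 in the other dTAGV1 libraries.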

How the results depend on the processing

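The 6 members that differed kept their direction and call in every alternative in which they were tested. Across these, CTNNB1 ran from -1.16 to -1.04, TCF7 from -2.18 to -1.76, RNF43 from -1.22 to -0.84, NKD1 from -0.80 to -0.55, APC from 0.36 to 0.46 and LGR4 from 1.77 to 1.99. Among genes averaging 100 counts or more, 3 members differed and AXIN2, NKD1, TCF7 and LGR4 were not tested; 4120 genes then differed, 2131 higher and 1989 lower, against 7302, 3710 and 3592, since fewer genes were tested. Scaling by library size gave 3186 higher and 4089 lower genes. TCF7L2 had no stable sign: its log2 fold change was -0.01 with DESeq2, limma-voom, RLE scaling and the replicate block, -0.02 with no filter or at 100 counts or more, -0.03 irrespective of strand, -0.08 with library size scaling, and -0.09 to 0.04 when each library was left out. ZNRF3 ran from 0.15 to 0.31 when each library was left out. ASCL2 had no value in any alternative.

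Same-numbered libraries correlated at 0.131, -0.0176, 0.0232 and 0.034 in their deviations from group means, so the numbers were not taken as pairs. A replicate block called 7434 genes and 52 of the wider list, and changed no call of a member. Depth limits AXIN2, NKD1 and TCF7 most.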

Other observations

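Genes that overlap a member or lie within 5 kb of it were looked up after the data were seen. Of these, 5 were tested. ULK4, opposite CTNNB1, had a log2 fold change of -0.22 (edgeR, adjusted p = 0.396), SKP1, opposite TCF7, 0.17 (edgeR, adjusted p = 0.414), and CCDC34, beside LGR4 on the same strand, 0.26 (edgeR, adjusted p = 0.272). ZNRF3-IT1, within an intron of ZNRF3, had -0.87 (edgeR, adjusted p = 0.0583). RPS15AP30, a pseudogene within an intron of TCF7L2 on the same strand, rose by 0.48 on the log2 scale (edgeR, adjusted p = 0.00202), while TCF7L2 was at 0.00. Its reads can come from copies of the same sequence or from introns of TCF7L2, so its value is uncertain.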
